A study of Oryza sativa with 8 samples.

Results

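Gene expression in roots was compared between 2 indica rice lines, one labelled tolerant of cold and the other sensitive to it, while both grew at 28 °C, the temperature at which neither was under cold stress. The comparison held 35835 rice locus IDs with a p-value, of 42004 rice locus IDs and 42189 rows in all, and 27576 of them had an adjusted p. It rested on 2 libraries of the tolerant line and 2 of the sensitive line, of 8 libraries in the series. A positive difference means a higher level in tolerant roots.

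Both are IRGA breeding lines whose names share a long stem and differ in their endings. Each library pooled the roots of 4 plants at the 3-leaf stage, about 30 days old, grown in nutrient solution. The plants compared were kept at 28 °C, and 2 libraries per line from plants held at 10 °C are used below as a second set. Of the time under treatment, one label protocol gives 24 hours and another up to 10 days. Each line is a single genotype, so the trait of cold tolerance and every other difference between the lines cannot be told apart, and p-values measure the spread between libraries of pooled plants.

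Rice comes from warm regions, and its seedlings slow their growth, take up less water and lose root function in the cold. A difference already present in warmth is called constitutive, in contrast to one that the cold induces. Between related breeding lines such differences can take 2 forms: a transcript detected in one line and nearly absent from the other, or a graded shift of a transcript that both lines make. The files pair no locus ID with a gene name, so each gene appears under its ID, and the chromosome and order of a locus are read from the ID itself.

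Reads per library were recovered from the deposited tables and are given as normalised reads, that is, reads divided by the size factor that puts the libraries on one scale. Whole reads were recovered for 35397 of the 35835 genes, 27264 of the 27576 tested genes and all 211 genes called below. Libraries at 28 °C held 19439389 to 20779070 recovered reads. The libraries of a group are called A and B by size factor alone and carry no replicate number. A typical gene differed between the tolerant libraries by 0.243 on the log2 scale and between the sensitive libraries by 0.169, as medians over 20096 genes. The corresponding median between the lines was 0.165. It compares levels over both libraries of each line, which scatter less than single libraries. The values within and between lines are thus not on a like scale. Tolerant library B stood furthest from its partner, with 234 genes at least 4-fold above library A and 57 at least 4-fold below. The same counts between the sensitive libraries were 88 and 55. The summed level of 4 root marker loci was 45878 and 91960 normalised reads in the tolerant libraries, against 50016 and 56258 in the sensitive ones. Not all 4 loci shared the higher level in tolerant library B. LOC_Os02g51110 had 15526 and 44111 in tolerant libraries A and B and LOC_Os03g01700 had 5398 and 23523, but LOC_Os02g56510 had 9285 and 8484. The summed level of 11 shoot photosynthesis loci was 5675 and 5882 against 7909 and 3341, and no locus of either list passed the test.

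Few genes were called between the lines in warmth, and most of those called differed strongly. In the authors' deposited table, 211 of 27576 tested genes (0.765%) had a Wald test adjusted p below 0.05, with Benjamini-Hochberg adjustment. Of these, 108 genes (0.392% of those tested) were higher and 103 (0.374%) were lower in tolerant roots. An unadjusted p below 0.05 was found for 1043 genes (3.78%). In whole roots, a change in the share of cells of a type and a change in RNA per cell cannot be told apart. The median size of the difference was 3.23 on the log2 scale over the called genes and 0.223 over all tested genes. With 2 libraries per line mainly large differences can pass, so these medians are no test. Genes not called may differ too. The difference was at least 4-fold for 83 of the genes higher and 72 of the genes lower in tolerant roots, and under 2-fold for 4 and 5 of them. Both tolerant libraries lay on the same side of both sensitive libraries for all 211 called genes, which was also so for 10546 of 27264 tested genes (38.7%). At the edge of the threshold, LOC_Os09g32620 (adjusted p 0.0474 in the authors' deposited table) was the last gene called and LOC_Os01g11860 (0.0503) the first left out. When the deposited test was refitted without each library in turn, 112 to 150 genes were called, and 91 of the 211 were called in all 4 refits. On the recovered reads limma called 84 genes (0.308%) with all 8 libraries and 61 (0.224%) with the 4 at 28 °C.

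**Figure D1:**
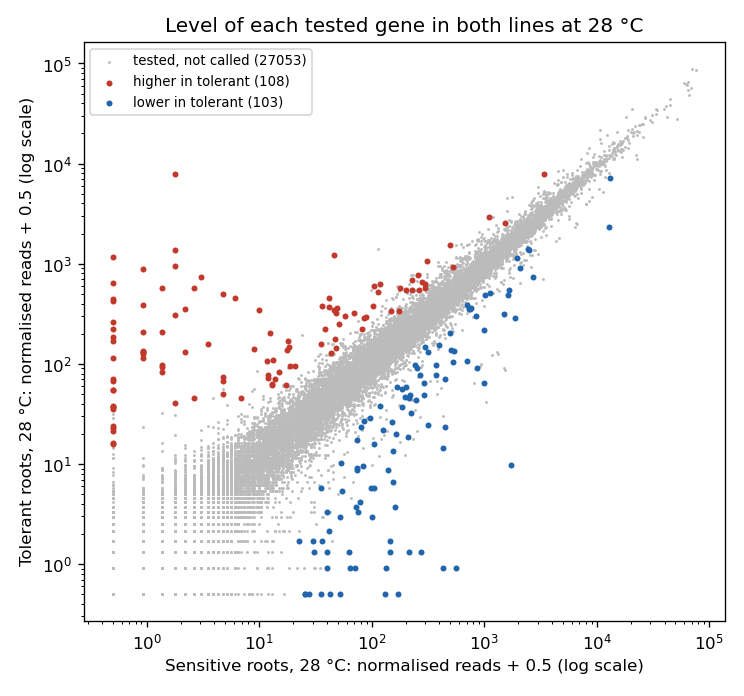
Level of each tested gene with recovered reads in sensitive roots (horizontal) and tolerant roots (vertical) at 28 °C, in normalised reads plus 0.5 on log axes; each point is a gene and its level the mean over the group. The 108 genes called higher and 103 called lower in tolerant roots lie off the diagonal, and columns or rows of points at the edges hold genes with no read or a few reads in one line.

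The sharpest difference was a transcript with reads in one line and almost none in the other. Of the 211 genes, 64 had at most 3 reads over both libraries of the lower line. Among them 40 were higher in tolerant roots, with a median level of 127 normalised reads there, and 22 of these had no read at all in sensitive roots. The other 24 were lower in tolerant roots, with a median level of 57.1 in sensitive roots, and 8 of these had no read in tolerant roots. Genes with so few reads were thus fewer in tolerant roots than in sensitive roots, a difference in count that was not tested. The genome build is not given, and few mapped reads need not mean that a transcript was not made. Folds for such genes are given against a floor of 3 reads over the group where no read was seen, and otherwise as a ratio with its exact 95% Poisson counting interval, and both cover counting error only.

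A short run of loci near the start of chromosome 4 held 6 of these genes. LOC_Os04g02490 had 1018 and 1319 normalised reads in the tolerant libraries and 0 and 0 in the sensitive libraries. This is a level at least 908-fold higher in the tolerant line (log2 difference 12.86, SE 1.50, adjusted p 2.2e-14 in the authors' deposited table). Its 5 called neighbours went the other way. LOC_Os04g02070 had 547 and 582 normalised reads in the sensitive libraries and 0.798 and 0 in the tolerant libraries, a ratio of 1384 (248 to 54679). LOC_Os04g02110 had 397 and 469 in the sensitive libraries and 0.798 and 0 in the tolerant libraries. LOC_Os04g02280 had 248 and 299 in the sensitive libraries and 1.60 and 0 in the tolerant libraries, a ratio of 334 (92.5 to 2758). All 3 therefore had at most 2 reads over both tolerant libraries. LOC_Os04g02354 had 198 and 139 in the sensitive libraries and none in the tolerant ones, at least 139.9-fold lower in tolerant roots. LOC_Os04g02120 was the least abundant, with 26.6 and 22.8 in the sensitive libraries and none in the tolerant libraries. The run from LOC_Os04g02070 to LOC_Os04g02490 held 9 tested loci, and the 6 called ones were also called in the same direction at 10 °C.

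On chromosome 11 a run of genes had high levels in tolerant roots and a few reads at most in sensitive roots. LOC_Os11g09590 had 1341 and 1405 normalised reads in the tolerant libraries and 0 and 2.73 in the sensitive libraries, a ratio of 1069 (366 to 5184; log2 difference 10.05, SE 0.93, adjusted p 1.95e-23 in the authors' deposited table). LOC_Os11g09710 had 1011 and 879 against 0 and 2.73, a ratio of 737 (252 to 3576). LOC_Os11g09850, named after its values were seen, had 405 and 444 against 0 and 0. The tolerant libraries lay close together for all 3 genes, and in each case the reads in sensitive roots came from at most 1 library. Farther along the chromosome 2 genes had the reverse pattern. LOC_Os11g37300 had 195 and 236 normalised reads in the sensitive libraries and 0.798 and 0.829 in the tolerant libraries, a ratio of 264 (72.9 to 2176). LOC_Os11g34650 had 146 and 142 against 0 and 1.66, a ratio of 177 (49.1 to 1464).

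Chromosome 7 carried 7 genes of this kind that were higher in tolerant roots, 5 of them with no read in sensitive roots, and 3 that were lower. The most abundant of the 7 were the following pair. LOC_Os07g26100 had 742 and 1048 normalised reads in the tolerant libraries and 0.806 and 0 in the sensitive libraries, a ratio of 2086 (374 to 82379.9). LOC_Os07g23850 had 376 and 914 against 0 and 0, at least 498-fold higher in tolerant roots. Its tolerant libraries differed from each other, but neither overlapped the sensitive libraries.

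The gene of this kind with the highest mean level rested on 1 library. LOC_Os09g39090 had 252 and 15669 normalised reads in tolerant libraries A and B, and 0 and 2.73 in the sensitive libraries. The authors' deposited table gives it a log2 difference of 12.53 (SE 2.29, adjusted p 1.77e-05). Refitted without tolerant library B, the log2 difference was 7.55 and the adjusted p 0.691. At 10 °C it had 39.4 and 2.44 in the tolerant libraries and 2.09 and 1.47 in the sensitive libraries. The log2 difference there was 3.55 (SE 2.32), and the gene was not called. Only 1 tolerant library came near the sensitive ones.

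**Figure D2:**
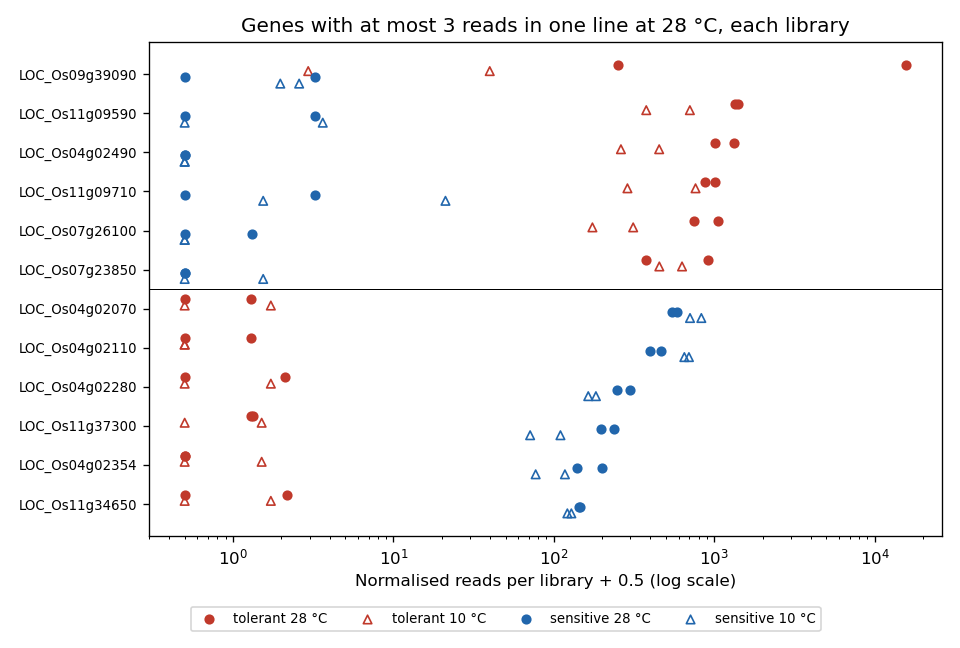
Normalised reads plus 0.5 in each library (log axis) for the 6 most abundant genes of either direction with at most 3 reads in one line at 28 °C; filled circles are libraries at 28 °C, open triangles at 10 °C, red tolerant and blue sensitive. The lines are separated in all 12 genes at 28 °C, and LOC_Os09g39090 reaches 15669 in 1 tolerant library, with 1 tolerant library near the sensitive ones at 10 °C.

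The graded differences were between transcripts that both lines made. Both lines had a level of at least 50 normalised reads for 27 of the genes higher and 39 of the genes lower in tolerant roots. Their median log2 difference was 1.58 for the former, from 0.72 to 2.52, and -1.62 for the latter, reaching a size of 3.98. Among the largest rises, LOC_Os10g04342 had 659 and 539 normalised reads in the tolerant libraries against 108 and 101 in the sensitive ones (log2 difference 2.52, SE 0.37). LOC_Os11g14110 had 266 and 333 against 55.6 and 59.2. LOC_Os09g33620 had 333 and 314 against 77.4 and 61.1. For each of these 3, either tolerant library was at least 4-fold above either sensitive library. LOC_Os08g13990 had 235 and 259 against 48.4 and 52.9. LOC_Os11g24340 had 481 and 789 against 119 and 118, and was not called without tolerant library B (refit adjusted p 0.0574).

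Among the largest graded falls, 3 genes had tolerant libraries that differed from each other. LOC_Os07g28644 had 1026 and 954 normalised reads in the sensitive libraries and 113 and 12.4 in tolerant libraries A and B (log2 difference -3.98, SE 0.77). LOC_Os10g30970 had 884 and 822 in the sensitive libraries and 136 and 41.5 in tolerant libraries A and B. LOC_Os06g40415 had 1914 and 1837 in the sensitive libraries and 473 and 93.7 in tolerant libraries A and B. In all 3, tolerant library A held more than tolerant library B, and both were below every sensitive library. Without tolerant library B none of the 3 was called, with refit adjusted p of 0.148, 0.101 and 0.9999. LOC_Os06g40415 was called only in the refit without tolerant library A. LOC_Os09g33470 was tighter, with 479 and 414 against 60.7 and 81.3 (log2 difference -2.65, SE 0.28). LOC_Os09g31410 had 648 and 767 in the sensitive libraries and 76.6 and 136 in the tolerant libraries.

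Apart from LOC_Os09g39090, the called genes of highest mean level were made by both lines. LOC_Os08g02120 had 6839.9 and 8921 normalised reads in the tolerant libraries and 3356 and 3456 in the sensitive ones (log2 difference 1.21, SE 0.26, adjusted p 0.000553 in the authors' deposited table). LOC_Os09g26560 had 3010.1 and 2804 in the tolerant libraries against 1070.0 and 1128. LOC_Os09g33930 had 2412 and 2651 against 1592 and 1478, the smallest log2 difference called in this direction, 0.72. It was called in none of the 4 refits that each left out 1 library. On the other side, LOC_Os11g20160 had 15188 and 10014 in the sensitive libraries and 3000.5 and 1654 in the tolerant ones (log2 difference -2.44, SE 0.53). LOC_Os07g09870 had 2596 and 2271 in the sensitive libraries and 1549 and 1239.8 in the tolerant ones, a log2 difference of -0.80. LOC_Os08g02120 was not called without tolerant library B (adjusted p 0.217 in the refit), nor LOC_Os11g20160 without tolerant library B (0.221) or sensitive library A (0.174). LOC_Os07g09870 was called only in the refit without tolerant library A.

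The called genes were not spread evenly over the chromosomes. Chromosomes 7, 9 and 11 held 131 of the 211 called genes (62.1%) and 19.4% of the tested loci. Chromosome 9 had 51 called genes of 1557 tested (3.28%), chromosome 11 had 40 of 1672 (2.39%) and chromosome 7 had 40 of 2112 (1.89%). Chromosome 3 had 1 called gene of 3409 tested (0.0293%). On chromosome 7 the called genes were lower in tolerant roots in 26 cases and higher in 14, and on chromosome 9 they were higher in 30 and lower in 21.

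Runs of called loci were described as stretches. A stretch was defined as at least 5 called loci with at most 30 tested loci between neighbours. There were 14 such stretches, with 128 of the 211 called genes (60.7%) in 901 of the tested loci (3.27%). By the definition of a stretch the share called is high inside (14.2%) and low outside (0.311%), which is a description and no test. The stretches were on chromosome 9 (4), chromosomes 7 and 11 (3 each) and chromosomes 1, 2, 4 and 10 (1 each). Both directions occurred in every stretch. Of 30 pairs of called genes that were next to each other among the tested loci, 24 had the same direction and 6 the opposite one.

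Each large stretch had a lead gene, the one of smallest p. The longest ran from LOC_Os07g12230 to LOC_Os07g19540, with 19 called genes of 199 tested, of which 13 were lower in tolerant roots. Its lead gene, LOC_Os07g17220, had 294 and 342 normalised reads in the sensitive libraries and 35.9 and 11.6 in the tolerant libraries. The stretch from LOC_Os09g31410 to LOC_Os09g33940 held 13 called of 143 tested, led by LOC_Os09g33470 described above. On chromosome 2, LOC_Os02g05780 to LOC_Os02g06200 held 12 called of 31 tested (38.7%), with 5 higher and 7 lower. Its lead gene LOC_Os02g05970 had 156 and 249 in the tolerant libraries and 15.3 and 8.20 in the sensitive ones. The next called locus after it, LOC_Os02g05980, was opposite, with 36.7 and 8.29 in the tolerant libraries and 443 and 448 in the sensitive ones.

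On chromosome 11 the stretch LOC_Os11g35425 to LOC_Os11g37540 held 12 called of 73 tested and had a median size of difference of 6.93 on the log2 scale. Its lead gene LOC_Os11g35710 had 1972 and 1416 normalised reads in the sensitive libraries and 6.39 and 12.4 in the tolerant libraries (log2 difference -7.50, SE 0.45). The stretch from LOC_Os10g02990 to LOC_Os10g04342 held 11 called of 46 tested, 9 of them higher in tolerant roots. Its lead gene LOC_Os10g03390 had 351 and 1150.2 in the tolerant libraries and 2.42 and 2.73 in the sensitive libraries. The stretch from LOC_Os09g25880 to LOC_Os09g26560 was the most one-sided of these, with 8 of 9 called genes higher in tolerant roots. Its lead gene LOC_Os09g26540 had 315 and 376 against 50.8 and 40.1.

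**Figure D3:**
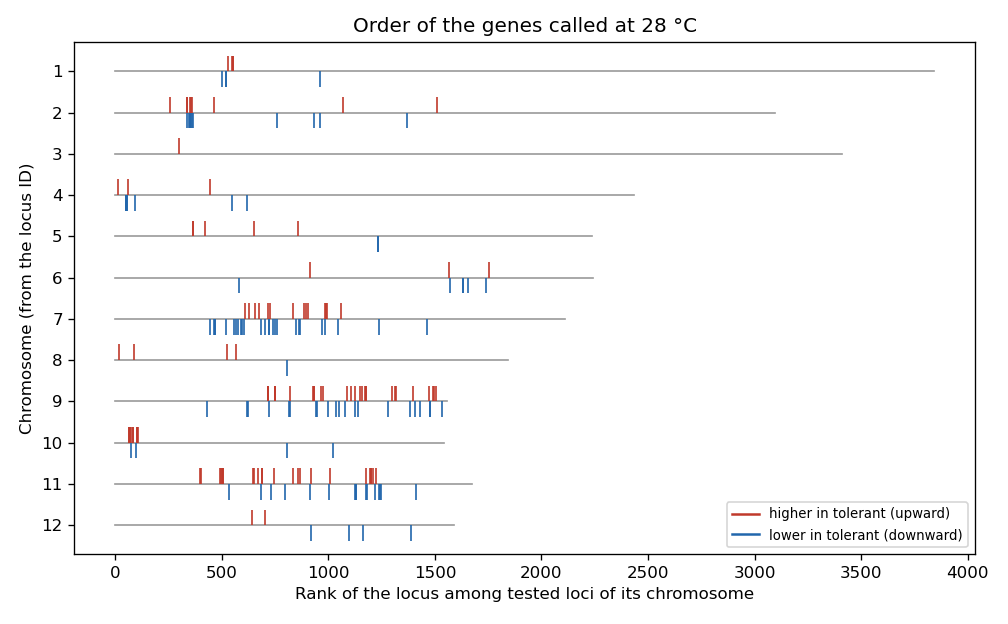
Position of each called gene by its rank among the tested loci of its chromosome (horizontal) on the 12 rice chromosomes (vertical); upward red ticks are genes higher and downward blue ticks genes lower in tolerant roots. Ticks gather on chromosomes 7, 9 and 11 and in short runs on chromosomes 2, 4 and 10, while chromosome 3 has 1.

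The libraries from plants at 10 °C, none of which entered the 28 °C contrast, showed most of the same differences. They share one fit, and so the spread estimated per gene, with the libraries at 28 °C. In the authors' deposited table for 10 °C, 681 of 23446 tested genes (2.9%) were called. Of the 211 genes called at 28 °C, 151 were called there, 147 in the same direction and 4 in the opposite one. The sign was the same for 194 of the 211, and for 181 both tolerant libraries at 10 °C lay on the same side of both sensitive libraries as at 28 °C. For neither count was the share over all tested genes computed at 10 °C. At 28 °C the libraries of the lines did not overlap for 38.7% of tested genes. Libraries at 10 °C differed more from their partners, by medians of 0.487 (sensitive) and 0.387 (tolerant) on the log2 scale. The share at 28 °C is thus no like measure for them. All 64 genes with at most 3 reads in one line kept their sign, and 49 of them were called. LOC_Os11g09850 had 623 and 636 normalised reads in the tolerant libraries at 10 °C and 1.04 and 0 in the sensitive ones. LOC_Os04g02070 had 706 and 831 in the sensitive libraries at 10 °C and 0 and 1.22 in the tolerant ones.

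Tested as the mean of the differences at both temperatures, 480 of 23446 genes (2.05%) passed, 209 higher and 271 lower in tolerant roots. They included 190 of the 211. The mean contains the difference in warmth by which the 211 were chosen, so this overlap is no separate test of them. Of the 60 genes not called at 10 °C, 47 had the same sign, and in 26 the line with the higher level in warmth had fallen more than 4-fold. Over all 211 called genes such a fall occurred in 37. LOC_Os08g02120, not one of these 26, was also not called at 10 °C, with 2073 and 2812 normalised reads in the tolerant libraries there against 1929 and 2066 in the sensitive ones.

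**Figure D4:**
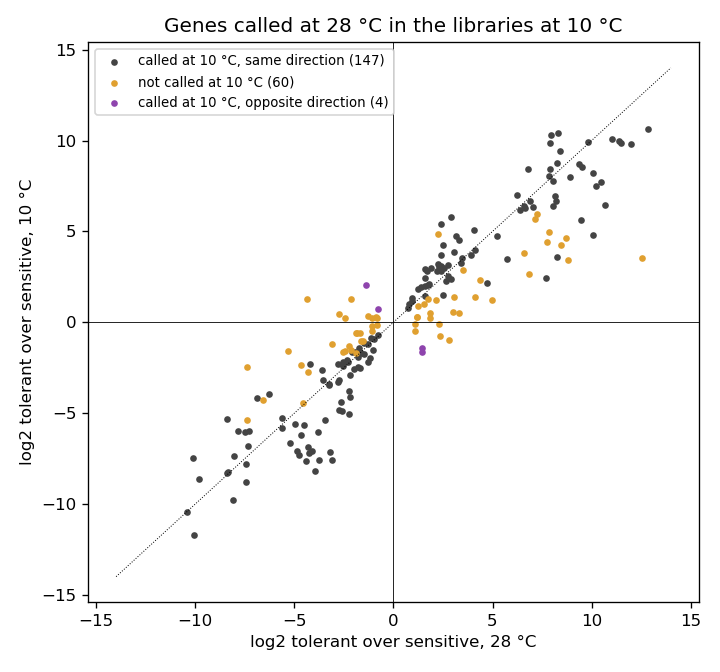
Log2 difference of tolerant over sensitive roots at 28 °C (horizontal) and at 10 °C (vertical) for the 211 genes called at 28 °C; the dotted line marks equal differences. Of these, 147 were called at 10 °C in the same direction, 60 were not called and 4 were called in the opposite direction.

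For a small number of genes the difference between the lines depended on temperature. The difference at 28 °C set against that at 10 °C passed a Wald test in 168 of 23446 genes (0.717%), among them 16 of the 211. The difference at 28 °C, by which the 211 were chosen, enters this test, so the count of 16 is no separate result about them. In 4 of these 16 the direction was opposite and called at both temperatures. LOC_Os09g29490 had 422 and 681 normalised reads in the tolerant libraries and 210.5 and 192 in the sensitive ones at 28 °C. At 10 °C it had 43.4 and 53.8 against 156 and 146. LOC_Os07g14740 went from 216 and 231 against 67.7 and 97.5 at 28 °C to 101 and 111 against 236 and 327 at 10 °C. Both were thus higher in tolerant roots in warmth and higher in sensitive roots in the cold. LOC_Os02g17780 had 169 and 138 in the tolerant libraries and 459 and 332 in the sensitive ones at 28 °C, and 24.2 and 33.0 against 4.17 and 10.3 at 10 °C. LOC_Os07g09870, lower in tolerant roots at 28 °C as given above, had 3739 and 3549 against 2274 and 2146 at 10 °C. Their calls at 28 °C were weak: without 1 library in turn, LOC_Os02g17780 was called in 0 of 4 refits and each of the other 3 genes in 1 of 4. LOC_Os07g09870 also lost its call with centred differences (adjusted p 0.0583).

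In other genes of the 16 the gap closed or widened. LOC_Os06g44034 had 317 and 396 normalised reads in the tolerant libraries at 28 °C against 2.42 and 0.912 in the sensitive ones, and 456 and 222 against 69.9 and 53.0 at 10 °C. The sensitive line, nearly without this transcript in warmth, held it in both libraries in the cold. LOC_Os11g20160, among the most abundant called genes at 28 °C, had 126 and 298 in the tolerant libraries at 10 °C and 239 and 115 in the sensitive ones, which overlap. LOC_Os09g33470 went the other way, with 58.5 and 47.7 in the tolerant libraries against 1070.0 and 1135 in the sensitive ones at 10 °C.

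Lists of loci for root function and cold response held called genes at about the share found over all tested genes. Over 28 lists of loci written from general knowledge of rice, 2 of 243 tested loci (0.823%) were called, beside 0.765% of all tested genes. An unadjusted p below 0.05 was found for 12 of them (4.94%), beside 3.78%. The files do not annotate the loci, so list membership was not checked. No tested locus was called of 8 CBF/DREB and ICE regulators, which start the early cold response, or of 6 dehydrins and LEA proteins, which protect drying tissue. The same held for 7 loci known from natural variation in cold tolerance, 10 clock loci and 6 catalases and superoxide dismutases. Median log2 differences of these 5 lists were -0.44, 0.23, -0.01, -0.04 and 0.04, beside -0.03 over all tested genes. Some loci of the first 2 lists had almost no reads at 28 °C and could hardly be called. LOC_Os06g03670 had 0.798 and 0 in the tolerant libraries against 0 and 1.82, and LOC_Os11g26750 had 0 and 0.829 against 0 and 0. Others were abundant, such as LOC_Os02g44870 with 1263 and 2266 against 1355 and 1221.

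The called list locus of largest change was on the alcoholic fermentation list, whose enzymes make ethanol when oxygen is short. LOC_Os11g10480 had 1755 and 1553 normalised reads in the sensitive libraries and 722 and 352 in the tolerant libraries (log2 difference -1.62, SE 0.45, adjusted p 0.0453 in the authors' deposited table). Of the 5 tested loci of that list, the other 4 did not pass. It was called in 1 of the 4 refits that each left out 1 library, the one without tolerant library A. The adjusted p was 0.0676 when differences were centred on the median of the more abundant genes. At 10 °C it had 1124 and 2012 in the tolerant libraries and 2440.3 and 3908 in the sensitive ones, and was not called.

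The other called list locus was on the list of cellulose synthases, which build wall cellulose. LOC_Os07g24190 had 11944 and 14678 normalised reads in the sensitive libraries and 7305 and 6985 in the tolerant libraries (log2 difference -0.90, SE 0.24, adjusted p 0.0321 in the authors' deposited table). It was called in none of the 4 refits that each left out 1 library, and its adjusted p was 0.0676 with centred differences. All 9 cellulose synthase loci had a negative difference at 28 °C, before and after centring, with a median of -0.24. All 9 had a positive difference at 10 °C, 4 of them called, beside 2.9% of all tested genes called there in either direction. Centring was applied at 28 °C only. The share of each sign over all tested genes is not given, so the counts of signs are a description. For 2 of the 9 loci the difference between temperatures itself passed the Wald test, beside 0.717% of all genes tested. LOC_Os09g25490 had 2905.5 and 2582 in the tolerant libraries and 3079 and 2943 in the sensitive ones at 28 °C, and 645 and 839.7 against 255 and 259 at 10 °C. LOC_Os01g54620 had 3574 and 3545 against 4641 and 5393 at 28 °C, and 853 and 754 against 459 and 336 at 10 °C.

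The lists of root transport and growth differed in sign among themselves, and no locus of those that follow was called. Of 11 plasma membrane aquaporins, the water channels of the cell surface, 10 had a positive difference, with a median of 0.52. All 11 expansins, which loosen the wall in growth, had a positive difference, with a median of 0.58. All 9 nitrate and ammonium transport loci did so too, with a median of 0.70. At 10 °C the medians of these 3 lists were -0.24, 0.19 and -0.02. Other transport lists were mixed at 28 °C, with a positive difference in 4 of 9 potassium and sodium loci (median -0.17), 6 of 11 phosphate loci (0.47) and 4 of 7 silicon and metal loci (0.13). These are counts of signs without a test and without the share of each sign over all tested genes. Tolerant library B had the highest sum of the 4 libraries for aquaporins, expansins and nitrate and ammonium transport. The summed nitrate and ammonium level was 767 and 3251 normalised reads in tolerant libraries A and B, and 1068 and 1746 in the sensitive libraries. For expansins it was 5809 and 7897 against 4973 and 5019.7, with both tolerant libraries above the sensitive ones.

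Iron uptake loci varied widely within the lines, and with 2 libraries per line a difference between the lines may have been missed. The summed level of 13 such loci with recovered reads was 22420 and 69771 normalised reads in tolerant libraries A and B, and 24025 and 129825 in sensitive libraries A and B. Of 14 tested loci, none was called, 3 were positive and the median was -0.53. LOC_Os11g04020 had 1109 and 4058 in tolerant libraries A and B and 750 and 12942 in sensitive libraries A and B, a range within the sensitive line that spans the tolerant values.

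Within the tolerant line, genes lower than in sensitive roots were often nearer to the sensitive level in one library. Tolerant library A exceeded library B in 64 of these 103 genes and was below it in 31. On chromosome 7 it did so in 21 of 26, with a median of 11.4% of the sensitive level in library A and 3.52% in library B. On the other chromosomes it did so in 43 of 77, with medians of 19.7% and 12.1%. Those chromosomes differed among themselves: library A was above B in 5 of 6 genes on chromosome 6 and 8 of 11 on chromosome 2, but in 7 of 21 on chromosome 9, where the medians were 13.7% and 19.3%. Over all 25126 genes with at least 5 reads in tolerant roots the lean was the reverse, with library B at least 2-fold above A in 2187 and A at least 2-fold above B in 839. By that 2-fold measure library A was above B in 24 of the 103 genes and B above A in 4. On chromosome 7 these counts were 10 and 1, and on the other chromosomes 14 and 3. Examples on chromosome 7 are LOC_Os07g12230, with 10.4 and 0 normalised reads in tolerant libraries A and B against 102 and 108 in the sensitive ones, and LOC_Os07g09460, with 16.0 and 0 against 149.98 and 128. At 10 °C the medians on chromosome 7 were 2.46% and 1.49% of the sensitive level in the tolerant libraries A and B there, and 13.8% and 19.2% on the other chromosomes. These cover only genes with a sensitive level of at least 10 normalised reads at 10 °C, 24 of 26 on chromosome 7 and 71 of 77 elsewhere. Whether the 4 plants pooled in each library were genetically uniform was not tested. This split by chromosome was chosen after the values were seen and has no test.

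**Figure D5:**
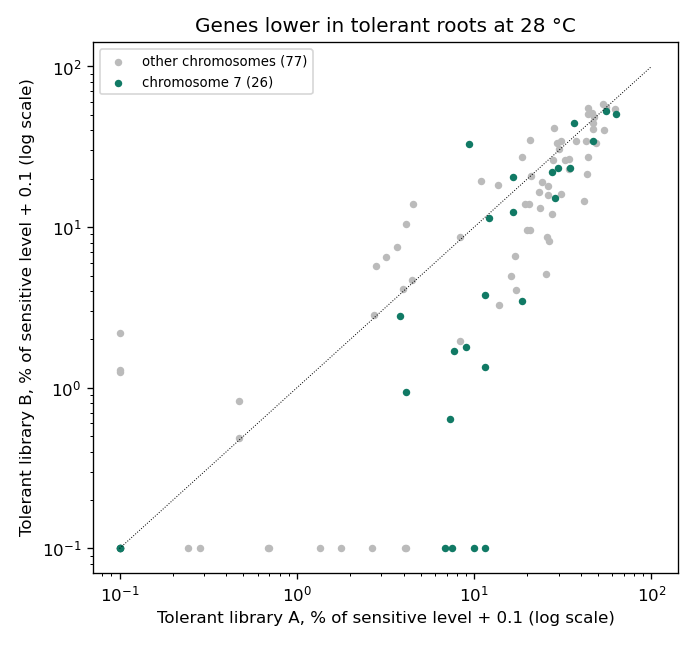
Level of each of the 103 genes lower in tolerant roots, in tolerant library A (horizontal) and B (vertical), as a percentage of the mean sensitive level at 28 °C plus 0.1 on log axes; the dotted line marks equal levels. Of the 26 genes on chromosome 7 (green), 21 lie below the line, 4 of them with no read in library B.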

How the data were processed

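Poly-A RNA from rice roots was sequenced as single 50 bp reads, per the labels' protocols. The 4 deposited tables compare groups in columns of DESeq2 type, per the file headers: a mean normalised signal over 8 libraries, log2 differences with standard errors, a Wald score, p-values and adjusted p-values, all computed by the authors. The submitters' processing notes name Bowtie 0.12.7; the deposited tables' name points to STAR. For the genome build, annotation, counter and handling of multiply mapping reads: not given in the sources used here, and genes with near-identical copies are uncertain.

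Reads per library were recovered here. Genes with a single read gave 8 size factors, the 4 differences and errors gave each gene's dispersion and group levels, and whole reads meeting them and the mean were searched. A gene was kept where exactly 1 set of whole reads met its equations, with the last group equation within 0.02 of a whole read. Size factors recomputed from the recovered reads lay within 0.101% of those used. The steps were tested on simulated data. No group's libraries could be tied to a replicate number.

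The main test is the deposited Wald test at adjusted p below 0.05. Differences averaged over, and compared between, temperatures were tested with normal p-values from the deposited values. The refit and limma 3.58.1 (R 4.3.3) used recovered reads. Named genes were, per direction, the 6 most abundant with at most 3 reads in the lower line. Also named per direction were the 5 of largest change with both lines at 50 or more and the 4 of highest mean. The lead genes of 6 stretches and called list loci were added. Other genes given with values were neighbours or examples chosen with the values known, or came from the temperature test. Members and lists were chosen with earlier results of these data known.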

Additional observations from a re-analysis of the deposited data

Results flagged for a closer look

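For 16 genes called at 28 °C and 3 list loci, the difference between the lines differed between temperatures in the Wald test of that difference. Values are the log2 difference at 28 °C minus that at 10 °C. The 16 genes were chosen by the difference at 28 °C that enters this Wald test, so it is no separate test of them. The gap was more positive at 28 °C for LOC_Os06g44034 (5.25), LOC_Os11g25700 (3.78), LOC_Os09g29490 (3.10), LOC_Os02g04540 (3.08), LOC_Os07g14740 (2.84), LOC_Os01g09450 (2.79), LOC_Os01g08890 (2.77), LOC_Os09g38800 (2.55), LOC_Os09g33470 (1.72) and LOC_Os09g30190 (1.55). It was more negative for LOC_Os02g17780 (-3.42), LOC_Os09g31410 (-3.20), LOC_Os11g18170 (-2.89), LOC_Os11g20160 (-2.69), LOC_Os07g09870 (-1.52) and LOC_Os06g43860 (-1.05). For LOC_Os01g08890 and LOC_Os09g33470, both lower in tolerant roots, a positive value means a wider gap at 10 °C. Among list loci the cellulose synthase loci LOC_Os09g25490 (-1.66) and LOC_Os01g54620 (-1.51) and the shoot photosynthesis locus LOC_Os01g41710 (2.75) differed in the same test, and none of these 3 was called at 28 °C.

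Several of the 16 had clear values in every library. LOC_Os11g18170 had 290 and 437 normalised reads in the tolerant libraries and 54.0 and 41.9 in the sensitive ones at 28 °C, and 351 and 262 against 6.26 and 4.42 at 10 °C. LOC_Os09g38800 had 1128 and 1323 against 28.2 and 65.6 at 28 °C, and 179.7 and 136 against 27.1 and 44.2 at 10 °C. LOC_Os11g25700 had 46.3 and 43.1 against 4.84 and 8.20 at 28 °C, and 34.3 and 50.1 against 104 and 61.8 at 10 °C.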

How the results depend on the processing

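The count of 211 genes was 166 at adjusted p below 0.01, 202 with a 2-fold minimum, 204 when adjusted over every gene with a p-value, 203 with centred differences and 147 without genes of at most 3 reads in the lower line. It was 95 among genes above the median mean. Dividing the statistics by their robust spread of 0.675 gave 801. On recovered reads, alternatives chosen after seeing the data, limma called 84 genes with 8 libraries (56 higher in tolerant roots, 82 shared with the 211) and 61 with the 4 at 28 °C (40 higher, 61 shared). Leaving out 1 library in the refitted test, each gene's dispersion held, gave 125 and 133 genes without sensitive library A and B and 150 and 112 without tolerant library A and B. With limma on 7 libraries, where the lone library is assumed to vary like the other groups, the range was 0 to 28. The 2 fits with 0 calls, without either sensitive library, had 960 and 742 genes at an unadjusted p below 0.05, and those without tolerant library A or B called 28 and 15. The cause of these differences was not tested.

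Since libraries carry no replicate number, the replicate block was fitted under both pairings, with 330 calls (A with A) and 266 (A with B) in limma. Over 20096 genes the differences of library B from A had a correlation of 0.231 between the lines.

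The mean over temperatures gave 480 calls, 371 at adjusted p below 0.01, 147 called in both deposited tables in 1 direction and 171 among genes above the median mean. The difference between temperatures gave 168, then 58 and 98 for the stricter threshold and the more abundant genes. Of the calls at 28 °C, 151 were called at 10 °C, with 121 and 73 in those settings. The 14 stretches became 12 and 14 with gaps of at most 15 and 60 loci and 20 with calls from the mean over temperatures. List loci called numbered 4 with the latter, against 2. Of 34 named genes, 23 were called in all 4 refits less 1 library and 2 in none, and none changed sign in any setting run. Centring left 3 uncalled: LOC_Os07g09870, LOC_Os07g24190 and LOC_Os11g10480. Genes of few reads have folds that depth limits.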
